A study of Mus musculus with 12 samples.

Results

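The 40 genes described here encode proteins of nucleolar ribosome biogenesis, from the transcription of ribosomal DNA by RNA polymerase I to the early assembly of the small and large ribosomal subunits. They were chosen by name and function, with no measured value in the rule, though earlier results of these data were known. All 40 were found among the 46603 gene identifiers of the count table. All 40 also passed the filter on low counts, which left 13167 genes to test. RNA was sequenced from OT-I/Cas9 CD8 T cells, splenic T cells of mice that carry a transgenic T cell receptor for an ovalbumin peptide and express Cas9 with EGFP. Cells of every group had been stimulated through CD3 and CD28, transduced with a retroviral guide RNA, selected with puromycin as a bulk population and kept for days in IL-2, IL-7 and IL-15, so resting here means not restimulated. The activated groups spent 24 h on plate-bound antibody to CD3 (2.5 µg/mL) and were Tmed10 KO cells (guide sgTmed10) with water (H2O), Ctrl cells with 100 µM AGN192403 and Ctrl cells with water. The same 3 conditions were sampled at rest, which gave 6 groups of 2 libraries, and Ctrl cells with water are called control cells below. AGN192403 is an imidazoline receptor ligand that the study used to lower TMED proteins, cargo receptors of the early secretory pathway. It was added to cells with a control guide, so the comparisons of KO and of AGN192403 cells share the same control libraries. No label says whether the 2 libraries of a group came from separate cultures or mice, so p-values measure only the spread between these libraries, which may be technical.

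Ribosomes are made in the nucleolus. RNA polymerase I copies the ribosomal DNA into a long precursor RNA, small nucleolar ribonucleoproteins (snoRNPs) modify it, with box C/D particles guiding 2′-O-methylation and box H/ACA particles guiding pseudouridylation, and assembly factors fold, cut and pack it with ribosomal proteins into the precursors of both subunits. A T cell that meets its antigen enlarges, and its nucleolus with it, before it divides, and the transcription factor MYC is known to drive many genes of this programme. Polyadenylated mRNA was counted, so the values describe transcripts that encode the nucleolar machinery and not ribosomal RNA or ribosome number.

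Libraries held 9089350 to 16481840 counts, and the lowest count of any of the 40 genes in any library was 194. Tmed10 was lower in KO than in control cells, with 55.9 and 58.3 against 128 and 125 CPM (counts scaled to library size, with factors from the trimmed mean of M values, TMM) in activated cells. In resting cells it had 61.5 and 65.1 CPM in KO against 116 and 117 CPM in control cells. Kcnq1ot1, a nuclear noncoding RNA, set 3 libraries apart, at 33.3 CPM in resting control replicate 1, 42.2 CPM in activated AGN192403 replicate 1 and 33.6 CPM in activated control replicate 1, against 3.40 to 16.0 CPM in the other 9. Every member count was therefore also computed without these libraries. CD8 T cell markers, all 10 tested, summed to 3428 to 4753 CPM over the libraries. The markers of other cells summed to 55.2 to 98.1 CPM for CD4 T cells (4 of 5 tested), 29.7 to 163 CPM for B cells (2 of 8), 58.5 to 166 CPM for myeloid cells (5 of 11), 703 to 935 CPM for NK cells (2 of 6), 22 to 98.1 CPM for stromal cells (1 of 6) and at most 0.400 CPM for erythroid cells (0 of 6). Ms4a1, Hba-a2, Hbb-bs and Col3a1 were at 0 in all 12 libraries. Since whole populations were sequenced, fewer cells with a transcript and less of it per cell cannot be told apart.

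All 40 genes are protein-coding and lie on 18 chromosomes of GRCm38. Of these, 8 carry small nucleolar RNA genes inside them on the same strand, 23 in all, among them Nop56 with 5 and Nop58 with 4. Ncl, whose gene lies at 86344719 to 86359400 on the minus strand of chromosome 1, holds 3, including Snora75 and Snord82. A gene on the opposite strand overlaps 17 of the 40, for example Srr at Tsr1. Libraries were stranded, but the strand setting of the counting is not given in the sources used here, so reads from such pairs may not be fully told apart. Of all 65-base windows in the transcripts of Npm1, 20.5% also occurred in a transcript of another gene, and this share was 17.7% for Fbl, 16.1% for Nop56 and 14.3% for Pes1, so the counts of these 4 genes are less certain. For the other 36 it was at most 3.45%.

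MYC and related factors bind the E-box CACGTG, which reads the same on both strands. RefSeq promoter windows of GRCm38.p6, from 250 bases before to 50 bases after the start of the gene, were at hand for 34 of the 40 genes, and 8 of these windows (23.5%) held the motif, compared with 7.15% of all 32851 windows. The 32851 windows were not limited to the 13167 genes tested, so these shares are not like for like. Of the 26 genes with a window and no match, 17 had a smaller activation response under AGN192403, described further on. All 8 genes with a match had a smaller response too, as did 30 of all 40 genes, and the matches are shown with this known. A link of the motif to the response was not tested. Each match is printed 5′ to 3′ on the strand of its gene, with the E-box in capitals and up to 12 bases on each side.
Rrn3, chr16:13780472-13780501 (+): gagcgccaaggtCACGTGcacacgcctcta
Rrn3, chr16:13780639-13780668 (+): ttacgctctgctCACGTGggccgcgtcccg
Nop2, chr6:125131811-125131840 (+): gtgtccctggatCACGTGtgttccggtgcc
Pes1, chr11:3963965-3963994 (+): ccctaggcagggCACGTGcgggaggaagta
Wdr43, chr17:71616220-71616249 (+): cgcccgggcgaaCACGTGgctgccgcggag
Tsr1, chr11:74898092-74898121 (+): tcacttggtgcaCACGTGgactgcagaatg
Ltv1, chr10:13193092-13193121 (-): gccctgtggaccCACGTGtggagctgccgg
Utp20, chr10:88826765-88826789 (-): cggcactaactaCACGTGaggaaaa
Mybbp1a, chr11:72441355-72441376 (+): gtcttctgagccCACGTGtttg
Counted from the first transcribed base as 0, the motif began at -215 and -48 in Rrn3 and at -60 in Nop2, and in the other 6 it began after the start, between 2 (Pes1) and 40 (Mybbp1a). The activation response of control cells had a median of 1.36 on the log2 scale among the 8 genes with a match and 1.37 among the 26 without. These matches are letters in a window and no evidence of binding.

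The share of all counts that fell in the 40 genes was 1.25% and 1.26% in activated KO, 1.11% and 1.13% in activated AGN192403 and 1.27% and 1.28% in activated control libraries. At rest it was 0.544% and 0.552% in KO, 0.562% and 0.567% in AGN192403 and 0.505% and 0.508% in control libraries. No scaling enters these shares, and the AGN192403 libraries were the lowest of the activated and the highest of the resting ones. Ncl and Npm1 together held 35.8% to 41.6% of the counts of the 40 genes. Ncl encodes nucleolin and Npm1 nucleophosmin, both abundant nucleolar proteins that bind RNA and histones. Per kilobase of annotated exon, Npm1 had the highest level in activated control cells (730 CPM per kilobase), followed by Ncl (298), Mybbp1a (159), Nhp2 (151) and Ddx21 (150), and Wdr12 the lowest (7.45).

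**Figure D1:**
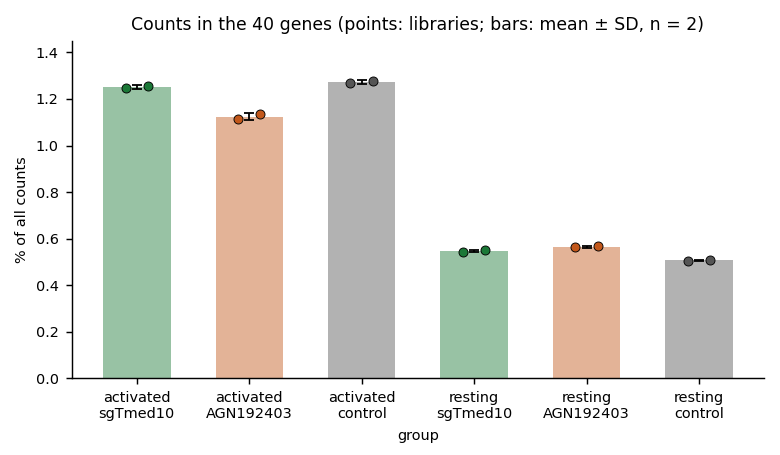
Percent of all counts (y axis) in the 40 genes for the 6 groups (x axis); points are the 2 libraries of each group and bars the mean ± SD (n = 2). Among activated cells the AGN192403 libraries lie lowest, at 1.11% and 1.13%, and among resting cells they lie highest, at 0.562% and 0.567%.

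**Figure D2:**
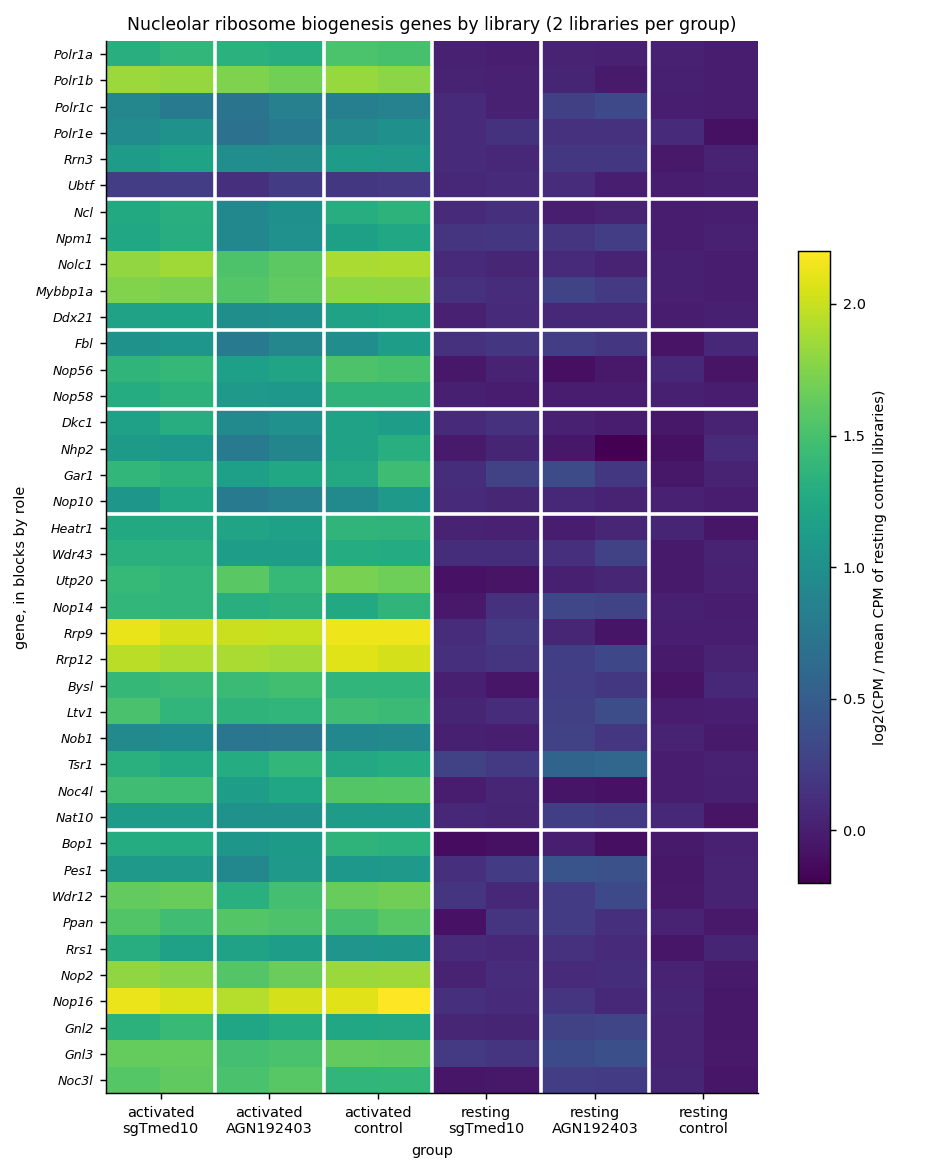
Level of each of the 40 genes (rows, in blocks by role) in each of the 12 libraries (columns, 2 per group), as the log2 ratio of its CPM to the mean of the resting control libraries. Activated libraries are brighter than resting ones for all 40 genes, least for Ubtf.

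The first comparison asked how the genes responded to restimulation in control cells. All 40 rose, with a median log2 difference of 1.35 (2.54-fold), while 36.4% of all genes tested were called higher and the median over all genes was -0.02. A gene was called where the p of edgeR's quasi-likelihood test, adjusted by Benjamini and Hochberg's method across the whole table, was under 0.05, and errors of log2 differences are standard errors (SE). Nop16, a factor of large subunit assembly, had the largest rise, to 117 and 127 CPM in activated control cells, against 28.4 and 26.6 CPM at rest. Its log2 difference was 2.16 ± 0.07 (adjusted p = 1.08e-19). Rrp9, a protein of the U3 snoRNP that guides the first cuts toward the small subunit, had 148 and 147 CPM in activated and 33.6 and 33.4 CPM in resting control cells, a rise of 2.14 ± 0.06. Activated and resting control libraries did not overlap for any of the 40 genes. The share of all genes without overlap was not computed here, where 36.4% of all genes were called higher and 37.4% lower.

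Each role group rose as a whole. Among the 6 genes of RNA polymerase I transcription the median was 1.05, and Polr1b, the second largest subunit, rose by 1.81 ± 0.05, with 151 and 146 CPM in activated and 42.8 and 42.1 CPM in resting control cells. Ubtf, which encodes the factor that keeps ribosomal DNA open for the polymerase, had the smallest rise of all 40, at 0.19 ± 0.04 (adjusted p = 0.000444), with 211 and 212 CPM in activated and 184 and 186 CPM in resting control cells. The organizers of the nucleolus (5 genes) had a median of 1.33, led by Nolc1, a chaperone of snoRNPs and the polymerase, at 1.90 ± 0.04. Nolc1 had 455 and 458 CPM in activated against 123 and 121 CPM in resting control cells. The box C/D core had a median of 1.37 (3 genes) and the box H/ACA core 1.20 (4 genes), led by Nop56 (1.52 ± 0.05) and Gar1 (1.35 ± 0.08). Medians were 1.37 for the 12 genes of small subunit assembly and 1.46 for the 10 of large subunit assembly. In KO cells all 40 rose as well (37.2% of all genes called higher), with a median of 1.31, and in AGN192403 cells all 40 rose (33.9%), with a median of 1.05. In AGN192403 cells 39 were called without resting AGN192403 replicate 2 or without activated AGN192403 replicate 2, and in KO cells 39 without resting KO replicate 1.

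In activated cells AGN192403 was set against water. Of the 40 genes, 26 were lower and 1 was higher in AGN192403 than in control cells, that is 65% lower against 18.3% of all genes and 2.50% higher against 16.4%. With library totals in place of TMM the split over all genes moved to 1929 lower and 2684 higher, against 2412 and 2158. DESeq2 called 19 of the 40 lower and 0 higher, against 1654 lower and 1377 higher of all genes. The median was -0.18 for the 40 genes (a fold of 0.883) and -0.01 for all genes. The fall was largest for Nhp2, a core protein of box H/ACA particles, with 126 and 136 CPM in AGN192403 cells, against 165 and 181 CPM in control cells. Both AGN192403 libraries lay below both control libraries, and the log2 difference was -0.40 ± 0.06 (adjusted p = 3.44e-06). In 30 of the 40 genes both AGN192403 libraries lay below both control libraries, and in 3 above, where 32.3% and 30.5% of all genes did so.

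All 5 organizers of the nucleolus fell. Ncl had 2289 and 2428 CPM in AGN192403 cells and 2979 and 3087 CPM in control cells, which is a difference of -0.36 ± 0.04 (adjusted p = 9.92e-09). Nolc1 fell by 0.34, Npm1 by 0.23, and Mybbp1a, a MYB-binding protein also tied to ribosomal RNA processing, and Ddx21, a nucleolar RNA helicase, by 0.21 each on the log2 scale. All 3 proteins of the box C/D core fell, among them Fbl, the methyltransferase fibrillarin (-0.20 ± 0.06). Nop56, which scaffolds that particle, had 299 and 310 CPM in AGN192403 cells, against 389 and 381 CPM in control cells (-0.34 ± 0.04, adjusted p = 9.26e-07). Of the box H/ACA core Nhp2, Dkc1 and Nop10 were called, Dkc1 being the pseudouridine synthase dyskerin (-0.18 ± 0.05). Gar1 alone was not, with 66.3 and 69.8 CPM in AGN192403 cells and 70.6 and 81.4 CPM in control cells (-0.16 ± 0.06, adjusted p = 0.0652).

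In small subunit assembly 7 of 12 genes fell and 0 rose. Noc4l, which acts with Nop14 in small subunit maturation, fell furthest, with 135 and 143 CPM in AGN192403 cells, against 181 and 181 CPM in control cells (-0.38 ± 0.04, adjusted p = 1.24e-07). The others that fell were Heatr1, Wdr43, Utp20, Rrp9, Rrp12 and Nob1, by 0.13 to 0.20 on the log2 scale, while Nop14, Bysl, Ltv1, Tsr1 and Nat10 had estimates from -0.09 to 0.07 and were not called. In large subunit assembly 5 of 10 fell, among them the PeBoW complex members Bop1 and Wdr12, whose partner Pes1 was not called (-0.08 ± 0.05). Bop1 had 185 and 190 CPM in AGN192403 cells and 227 and 222 CPM in control cells (-0.26 ± 0.04). Nop2, a methyltransferase of the large subunit RNA, fell by 0.24, Nop16 by 0.16 and Gnl3, the GTP-binding protein nucleostemin, by 0.12 on the log2 scale.

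Noc3l, a large subunit assembly factor, alone of the 40 was higher with AGN192403 in activated cells, at 93.2 and 97.4 CPM, against 85.3 and 85.8 CPM in control cells. Its difference was 0.16 ± 0.05 (adjusted p = 0.014), and it was not called without activated AGN192403 replicate 2 or without activated control replicate 1. Of the RNA polymerase I genes 3 of 6 fell. Polr1e, a subunit that joins the enzyme to its initiation factors, had the lowest estimate, at 30.9 and 33.2 CPM in AGN192403 cells and 36.4 and 38.3 CPM in control cells (-0.22 ± 0.07, adjusted p = 0.0234), and lost its call in 7 of 20 alternatives. Polr1a, the largest subunit, fell by 0.20, and Rrn3, the factor that brings the polymerase to the promoter, by 0.13 on the log2 scale. Without the 3 libraries high in Kcnq1ot1, 22 of the 40 were lower and 1 was higher, and without activated control replicate 2 there were 17 lower. Without activated AGN192403 replicate 1, 2 were higher. Marker sums moved with this comparison, to 153 to 166 CPM in AGN192403 against 100 to 106 CPM in control cells for the 11 myeloid markers, and to 89.9 to 95.8 CPM against 55.2 to 60.0 CPM for the 5 CD4 T cell markers. In these 4 libraries the defining myeloid markers Lyz2, Csf1r and Adgre1 were at 0, and Cd4 had 0.378 and 0.662 CPM with AGN192403, against 0.750 and 0.755 CPM in control cells. The markers that held most of the rise were Cd74, with 78.2 and 89.4 CPM in AGN192403 cells against 43.8 and 47.7 CPM in control cells, Cst3, with 70.8 and 71.5 CPM against 51.8 and 54.4 CPM, and Zbtb7b, with 67.6 and 62.5 CPM against 35.8 and 32.6 CPM. The part of these markers in the result was not tested.

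**Figure D3:**
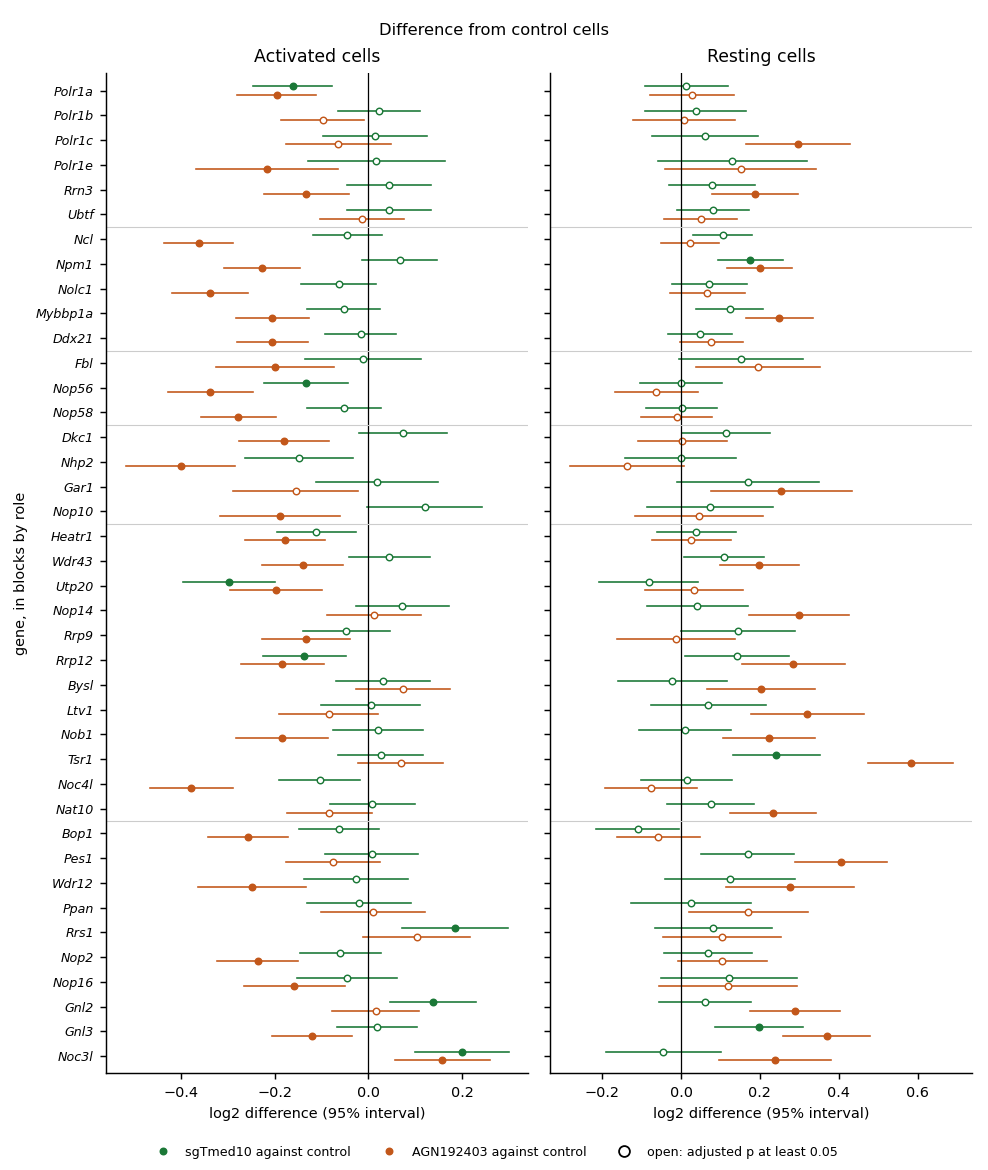
Log2 difference from control cells (x axis, with 95% intervals of the edgeR fit) for each of the 40 genes (rows, in blocks by role), in activated cells (left) and resting cells (right); filled points have an adjusted p under 0.05. The AGN192403 points of activated cells lie mostly below 0 and those of resting cells mostly above 0, with Tsr1 farthest out at 0.58, and most sgTmed10 points are open.

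At rest the direction was the opposite. With AGN192403, 18 of the 40 genes were higher and 0 lower than in resting control cells, that is 45% higher against 11.6% of all genes, with 13.7% of all genes lower. At an unadjusted p under 0.05 there were 20 higher and 0 lower, and DESeq2 called 12 higher and 0 lower. At that unadjusted cut the share of all genes was not computed, here or in later comparisons. Shares of all genes called by DESeq2 are not given here, for the differences of activation responses or between KO and AGN192403 cells. With library totals the split over all genes moved to 1991 higher and 1426 lower, against 1533 and 1808. The median was 0.16 for the 40 genes and -0.01 for all genes. Tsr1, a late factor of small subunit assembly, rose furthest, with 110 and 112 CPM in AGN192403 cells, against 73.3 and 75.2 CPM in control cells. The difference was 0.58 ± 0.05 (adjusted p = 5.4e-09), and it was called in all 20 alternatives. In 28 of the 40 genes both AGN192403 libraries lay above both control libraries, and in 1 below, where 29.3% and 31.4% of all genes did so.

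The rise at rest was spread over the assembly factors. In small subunit assembly 8 of 12 genes rose, including Ltv1 (0.32 ± 0.07), Nop14 (0.30 ± 0.06) and Rrp12 (0.28 ± 0.06). In large subunit assembly 5 of 10 rose, led by Pes1, with 111 and 108 CPM in AGN192403 cells, against 80.2 and 84.8 CPM in control cells (0.41 ± 0.06, adjusted p = 5.65e-06). Gnl3 rose by 0.37 ± 0.05, Gnl2 by 0.29 ± 0.06, Wdr12 by 0.28 ± 0.08 and Noc3l by 0.24 ± 0.07. Polr1c, a subunit that RNA polymerases I and III share, had 58.8 and 61.8 CPM in AGN192403 cells and 49.4 and 49.1 CPM in control cells (0.30 ± 0.06). Mybbp1a had 326 and 308 CPM with AGN192403, against 269 and 264 CPM in control cells (0.25 ± 0.04), and Npm1, the other organizer called, rose by 0.20 ± 0.04. Of the snoRNP cores, 0 of 3 box C/D genes were called, and only Fbl was higher at an unadjusted p under 0.05 (0.20 ± 0.08). Of the 4 box H/ACA genes only Gar1 was called, with 37.7 and 34.0 CPM in AGN192403 cells and 28.9 and 30.6 CPM in control cells (0.25 ± 0.09, adjusted p = 0.0332). Gar1 lost its call without the 3 Kcnq1ot1-high libraries, where 15 of the 40 were higher and 1 was lower. Without resting AGN192403 replicate 2 there were 11 higher. Malat1 and Kcnq1ot1, both nuclear RNAs, were lower in this comparison too. Malat1 had 1100 and 1156 CPM in resting AGN192403 cells, against 2594 and 1540 CPM in control cells (-0.87 ± 0.24), and Kcnq1ot1 had 6.87 and 4.58 CPM against 33.3 and 11.5 CPM (-1.94 ± 0.58). Their part in the result was not tested.

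Across the 40 genes, 8 were both higher with AGN192403 at rest and lower with it after activation: Rrn3, Npm1, Mybbp1a, Wdr43, Rrp12, Nob1, Wdr12 and Gnl3. A further 10 were higher at rest and not lower in activated cells, and Noc3l was the 1 of these that was higher in both states. Another 18 were lower in activated cells and not called at rest, and Polr1b, Ubtf, Ppan and Rrs1 were called in neither state. The differences at rest and after activation, which come from separate libraries, had a correlation of r = 0.58 (rho = 0.57) across the 40 genes. This is a description over genes, which share libraries and depth.

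The difference between the activation responses was then tested directly, as activated minus resting with AGN192403 less activated minus resting with water. The response was smaller with AGN192403 in 30 of the 40 genes and larger in 0, that is 75.0% smaller against 11.1% of all genes, with 8.62% of all genes larger. At an unadjusted p under 0.05 there were 33 smaller and 0 larger, and DESeq2 called 22 smaller and 0 larger. The estimate was below 0 for all 40 genes, with a median of -0.29, and the median over all genes was -0.02. Relative to the log2 response of control cells, that with AGN192403 had a median of 77.6% and ran from 55.6% for Pes1 to 99.9% for Rrs1. The difference was largest for Wdr12 (-0.52 ± 0.10, adjusted p = 0.000328), with 70.7 and 78.6 CPM in activated and 32.8 and 35.3 CPM in resting AGN192403 cells. Control cells had 87.8 and 90.4 CPM of Wdr12 when activated and 27.6 and 28.8 CPM at rest, so the activated AGN192403 libraries were the lower and the resting ones the higher.

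This difference took in all 5 nucleolar organizers, from -0.28 for Ddx21 to -0.45 for Mybbp1a, and all 3 box C/D core genes. It held for 10 of 12 genes of small subunit assembly, led by Tsr1 (-0.51 ± 0.07), for 6 of 10 of large subunit assembly, led by Wdr12, for 4 of 6 of RNA polymerase I transcription, led by Polr1e (-0.37 ± 0.12), and for 2 of 4 of the box H/ACA core, led by Gar1 (-0.41 ± 0.11). The 10 not called were Polr1b, Ubtf, Dkc1, Nop10, Rrp9, Bysl, Ppan, Rrs1, Nop16 and Noc3l. Of the 18 genes higher at rest 16 were among the 30, and of the 26 lower after activation 22. These overlaps are partly built in, as the tested difference equals the AGN192403 difference in activated cells less that at rest, from the same libraries. All 8 genes with an E-box in the promoter window were among the 30. So were 17 of the 26 with a window and no match. The count was 29 without the 3 Kcnq1ot1-high libraries, and 21 to 31 over the fits that left out 1 library each.

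**Figure D4:**
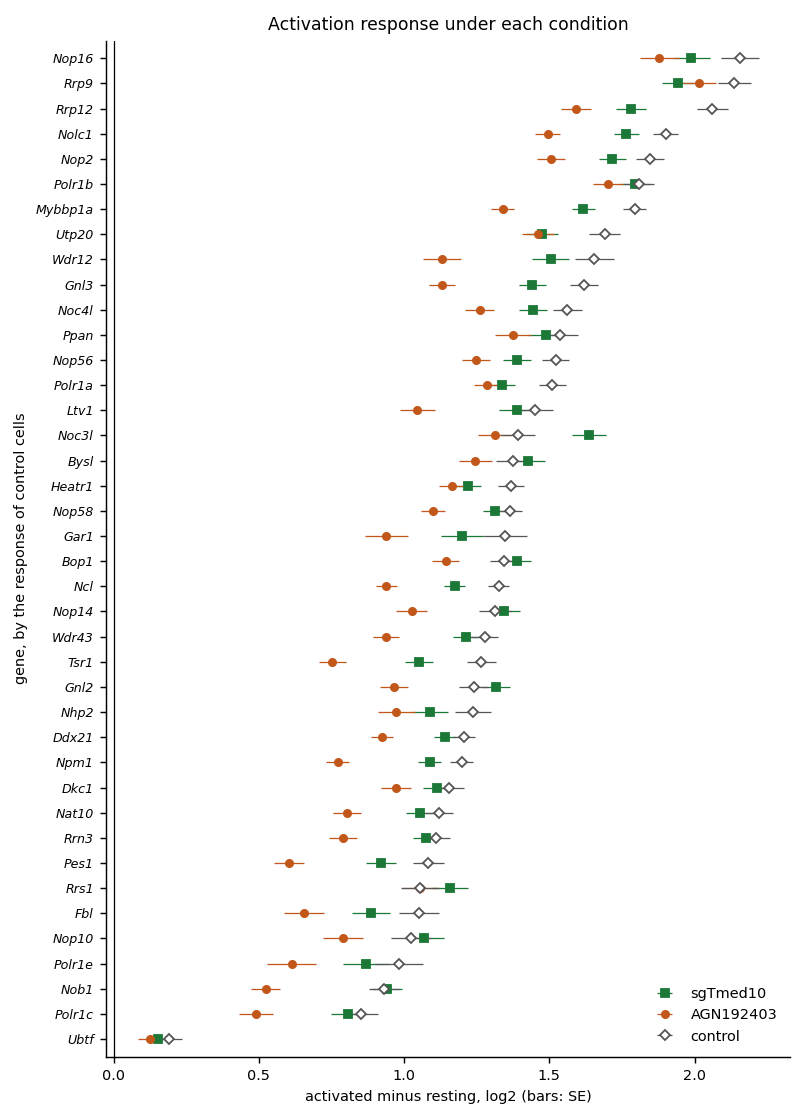
Activated minus resting level of each gene (rows, ordered by the response of control cells) on the log2 scale (x axis) in sgTmed10, AGN192403 and control cells; bars are SE. The AGN192403 point lies left of the control point in every row, by 0.29 in the median. The sgTmed10 point lies left of the control point in 32 rows, with 1 difference called.

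Few of these genes were called in KO cells. In activated cells 3 of the 40 were higher and 4 lower in KO than in control cells, that is 7.50% higher against 10.8% of all genes and 10.0% lower against 8.78%. The median was 0.01, and the median over all genes 0.02. DESeq2 called 0 higher and 2 lower, against 735 higher and 695 lower of all genes. Utp20, a scaffold of small subunit precursors, fell furthest, with 213 and 209 CPM in KO cells, against 264 and 256 CPM in control cells (-0.30 ± 0.05, adjusted p = 5.08e-05), and was called in all 20 alternatives. Polr1a (-0.16 ± 0.04), Rrp12 (-0.14 ± 0.04) and Nop56 (-0.13 ± 0.04) also fell. The 3 that rose are all of large subunit assembly, Noc3l (0.20 ± 0.05), Rrs1 (0.19 ± 0.05) and Gnl2 (0.14 ± 0.04). Noc3l had 96.8 and 100.2 CPM in KO cells and 85.3 and 85.8 CPM in control cells. The 95% intervals of all 40 genes lay between -0.40 and 0.30.

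These small counts rested on single libraries. The 4 lower became 1 without activated KO replicate 1, 2 without activated KO replicate 2 or activated control replicate 1, and 7 without activated AGN192403 replicate 1, which enters only the shared spread and scaling. The 3 higher became 1 without either activated control library. Kcnq1ot1 and Malat1 moved with this comparison, with 3.40 and 3.66 CPM of Kcnq1ot1 in activated KO cells, against 33.6 and 16.0 CPM in control cells. Malat1 had 437 and 400 CPM in KO cells and 1631 and 989 CPM in control cells. Without the 3 libraries high in Kcnq1ot1, 1 member was higher and 4 were lower. The marker sums moved as well, to 138 to 144 CPM in KO against 100 to 106 CPM in control cells for the 11 myeloid markers, and to 70.2 to 73.5 CPM against 55.2 to 60.0 CPM for the 5 CD4 T cell markers. The part of these RNAs and markers in the result was not tested.

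At rest 3 of the 40 genes were higher and 0 lower in KO than in control cells, that is 7.50% higher against 2.81% of all genes, with 4.63% of all genes lower. At an unadjusted p under 0.05 there were 10 higher and 1 lower. DESeq2 called 2 higher and 0 lower, against 161 higher and 219 lower of all genes. With library totals the split over all genes moved to 521 higher and 504 lower, against 370 and 609. Tsr1 had 89.4 and 85.9 CPM in KO cells and 73.3 and 75.2 CPM in control cells (0.24 ± 0.05, adjusted p = 0.00508). Npm1 rose by 0.18 ± 0.04, to 955 and 960 CPM in KO cells, against 835 and 860 CPM in control cells. Gnl3, with 66.4 and 64.8 CPM in KO cells and 58.9 and 56.0 CPM in control cells, rose by 0.20 ± 0.05. In these 3 genes both KO libraries lay above both control libraries, as in 26 of the 40 (25.6% of all genes), and the median was 0.07. The count was 0 without resting control replicate 1, 1 without resting KO replicate 1, and 6 without either resting AGN192403 library, either activated KO or AGN192403 library, or activated control replicate 2. Without the 3 libraries high in Kcnq1ot1 it was 4. Malat1 was lower in resting KO cells, with 733 and 751 CPM against 2594 and 1540 CPM in control cells (-1.48 ± 0.25), and so was Kcnq1ot1, with 4.57 and 5.13 CPM against 33.3 and 11.5 CPM (-2.15 ± 0.58). The part of these RNAs in the count was not tested.

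The activation response differed from that of control cells in 1 gene, being smaller in KO cells for Rrp12 (-0.28 ± 0.08, adjusted p = 0.032), and was larger for 0, where 1.89% and 3.07% of all genes were called. At an unadjusted p under 0.05 there were 11 smaller and 1 larger, and DESeq2 called 1 smaller and 0 larger. Without the share of all genes at that unadjusted cut, the 11 cannot be read as a trend. Rrp12 helps to export both subunits from the nucleus. It had 150 and 145 CPM in activated and 42.4 and 43.6 CPM in resting KO cells, and 164 and 160 CPM in activated and 38.0 and 39.6 CPM in resting control cells. Without resting KO replicate 1 or 2, resting control replicate 1 or 2 or activated control replicate 1 the count was 0. It was 4 without either resting AGN192403 library, 6 without activated AGN192403 replicate 1 and 5 without activated AGN192403 replicate 2. The KO response had a median of 92.6% of that of control cells over the 40 genes and was the smaller in 32. The share of all genes with a smaller estimate in KO cells was not computed, and only Rrp12 was called.

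**Figure D5:**
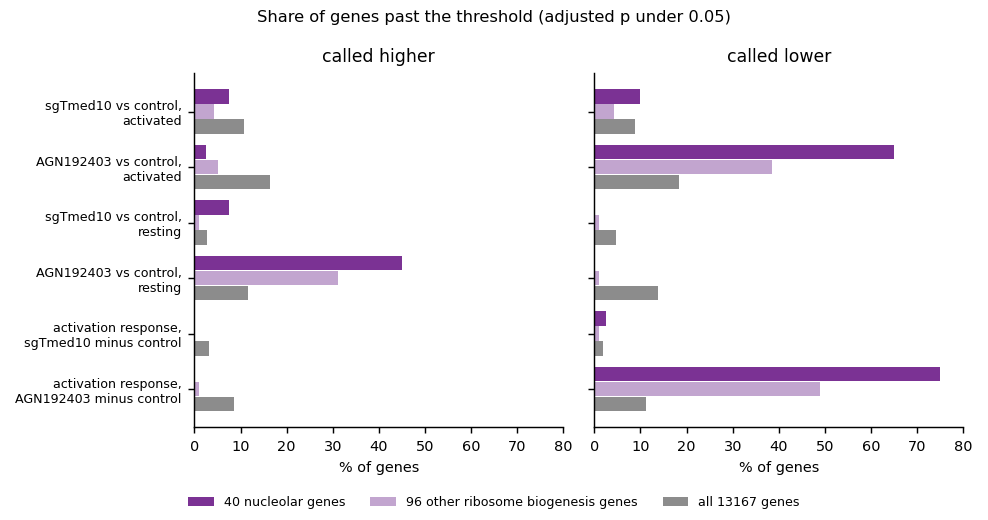
Percent of genes (x axis) called higher (left) and lower (right) in 6 comparisons (rows) among the 40 nucleolar genes, 96 other ribosome biogenesis genes and all 13167 genes tested. For AGN192403 in activated cells 65% of the 40 were lower against 18.3% of all genes, at rest 45% were higher against 11.6%, and for sgTmed10 in activated cells the bars of the 40 are near those of all genes.

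KO cells and AGN192403 cells were also compared with each other. After activation 21 of the 40 genes were higher and 0 lower in KO than in AGN192403 cells, that is 52.5% against 13.0% of all genes, with 7.34% of all genes lower. At an unadjusted p under 0.05 there were 25 higher and 1 lower, and DESeq2 called 15 higher and 0 lower. The split over all genes turned with library totals, to 1204 higher and 1500 lower, against 1706 and 967, and 17 of the 40 were then higher and 1 lower. Ncl had 2895 and 2986 CPM in KO cells, against 2289 and 2428 CPM in AGN192403 cells (0.32 ± 0.04, adjusted p = 4.05e-07). Npm1 had 1992 and 2083 CPM in KO cells and 1610 and 1714 CPM in AGN192403 cells (0.29 ± 0.04). Of the 26 genes lower with AGN192403 than in control cells, 20 were among these 21. Both comparisons hold the same activated AGN192403 libraries, so this overlap is partly built in. All 5 organizers and all 3 box C/D genes were called, but only 3 of 12 of small subunit assembly. Without activated KO replicate 1 the count was 11, and without activated KO replicate 2 it was 12. Without activated AGN192403 replicate 2, 1 gene was lower.

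At rest 12 of the 40 genes were lower and 0 higher in KO than in AGN192403 cells, that is 30% against 7.78% of all genes, with 8.83% of all genes higher. At an unadjusted p under 0.05 there were 14 lower and 3 higher, and DESeq2 called 3 lower and 0 higher. With median-ratio factors the split over all genes was 795 lower and 1511 higher, against 1024 and 1162. Tsr1 had 89.4 and 85.9 CPM in KO cells and 110 and 112 CPM in AGN192403 cells (-0.34 ± 0.05, adjusted p = 2.35e-05), and was called in all 20 alternatives. Noc3l (-0.28 ± 0.07) and Nop14 (-0.26 ± 0.06) followed. The count was 1 without resting KO replicate 1, 4 without resting KO replicate 2, 5 without resting AGN192403 replicate 1 and 3 without resting AGN192403 replicate 2. Of the 40, 1 was higher without either activated KO library, activated AGN192403 replicate 1 or activated control replicate 2.

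Other genes of the pathway, listed by function, were counted in the same way. Over all genes 18.3% were lower and 16.4% higher with AGN192403 in activated cells, 11.6% higher and 13.7% lower at rest, and the response was smaller for 11.1% and larger for 8.62%. Of 39 other small subunit assembly genes tested, 19 (48.7%) were lower and 1 (2.56%) was higher with AGN192403 in activated cells, 14 (35.9%) were higher and 0 lower at rest, and the activation response was smaller for 21 (53.8%). Utp4 (-0.33 ± 0.05), a protein of the early small subunit precursor, fell furthest in activated cells, and Pno1, which guards the 3′ end of the small subunit RNA, rose furthest at rest (0.61 ± 0.06). Of 41 other large subunit assembly genes, 14 (34.1%) were lower and 2 (4.88%) higher with AGN192403 in activated cells, 15 (36.6%) were higher and 1 (2.44%) was lower at rest, and the response was smaller for 24 (58.5%) and larger for 1 (2.44%). Lyar (-0.49 ± 0.05) and Mrto4 (-0.41 ± 0.05) fell furthest in activated cells and Sdad1 (0.46 ± 0.05) rose furthest at rest. Among 7 snoRNP assembly factors 3 (42.9%) fell with AGN192403 in activated cells, Znhit3, Ruvbl1 and Ruvbl2, and none was called at rest (0 higher, 0 lower). Their activation response was called smaller for Ruvbl2 alone (-0.30 ± 0.07) and larger for none.

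The 9 other RNA polymerase I genes had 2 (22.2%) higher and 1 (11.1%) lower with AGN192403 in activated cells, against 16.4% and 18.3% of all genes, and 1 (11.1%) higher and 0 lower at rest, against 11.6% and 13.7%. Taf1a, a subunit of the promoter selectivity factor SL1, was higher in both states (0.38 ± 0.09 activated, 0.72 ± 0.11 at rest), and Taf1d, another subunit, was lower in activated cells (-0.36 ± 0.06). In this list the activation response was called smaller for Taf1d alone (-0.38 ± 0.09) and larger for none. Over these 4 lists together, 96 genes, the medians with AGN192403 were -0.10 in activated and 0.13 in resting cells, and 37 (38.5%) were lower and 5 (5.21%) higher, and 30 (31.2%) higher and 1 (1.04%) lower. The response was smaller for 47 of the 96 (49%) and larger for 1 (1.04%). In KO cells 4 of the 96 (4.17%) were higher and 4 (4.17%) lower when activated, against 10.8% and 8.78% of all genes, the largest change being that of Mdn1, the giant ATPase of large subunit assembly (-1.10 ± 0.12), and 1 (1.04%) was higher and 1 (1.04%) lower at rest, against 2.81% and 4.63%. Control cells had 90 of the 96 (93.8%) higher on activation and 2 (2.08%) lower, against 36.4% and 37.4% of all genes, with a median of 1.07.

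Noncoding host genes, which carry snoRNAs in their introns, were counted next. Of 9 tested, 3 (33.3%) were higher and 2 (22.2%) lower with AGN192403 in activated cells, against 16.4% and 18.3% of all genes. Snhg3 (-0.55 ± 0.09) and Snhg5 (-0.42 ± 0.07) fell, and Snhg8 (0.48 ± 0.10), Snhg6 (0.28 ± 0.08) and Gas5 (0.20 ± 0.04) rose. Gas5, which hosts box C/D snoRNAs, was also higher in KO than in control cells in both states, at 0.16 ± 0.04 in activated and 0.17 ± 0.04 in resting cells. At rest 3 of the 9 (33.3%) rose with AGN192403, against 11.6% of all genes, and the activation response was smaller for 4 (44.4%), against 11.1%.

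Myc was not called in activated cells with AGN192403. It had 484 and 495 CPM in activated AGN192403 cells, against 500 and 524 CPM in control cells (-0.06 ± 0.04, adjusted p = 0.244, 95% interval from -0.15 to 0.02). At rest it was lower with AGN192403, with 193 and 191 CPM against 211 and 228 CPM in control cells (-0.20 ± 0.05, adjusted p = 0.00216). Its activation response with AGN192403 was not called different from that with water (0.13 ± 0.06, adjusted p = 0.145). In KO cells its difference was -0.04 ± 0.04 when activated and 0.01 ± 0.04 at rest, neither called.

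Of 11 tested genes of the MYC network, Myc included, 3 (27.3%) were higher and 3 (27.3%) lower with AGN192403 in activated cells, against 16.4% and 18.3% of all genes. At rest 0 were higher and 5 (45.5%) lower, against 11.6% and 13.7%. In KO cells 2 (18.2%) were higher and 3 (27.3%) lower when activated, against 10.8% and 8.78%, and 0 higher and 4 (36.4%) lower at rest, against 2.81% and 4.63%. Mycn, a paralogue of Myc, had 20.1 and 22.1 CPM in activated AGN192403 cells, against 49.5 and 51.6 CPM in control cells (-1.25 ± 0.07, adjusted p = 7.37e-13). The MXD proteins and MNT pair with MAX at E-boxes in place of MYC and repress. Mxd1 had 43.5 and 44.8 CPM in activated AGN192403 cells, against 83.6 and 81.6 CPM in control cells (-0.90 ± 0.06), and was also lower with AGN192403 at rest (-0.42 ± 0.06). Mxd4 was higher in activated AGN192403 cells, with 57.5 and 58.2 CPM against 34.2 and 35.3 CPM in control cells (0.74 ± 0.06), and was not called at rest (0.03 ± 0.04). Mnt was higher by 0.16 ± 0.06 in activated AGN192403 cells (adjusted p = 0.0467) and not called at rest (0.04 ± 0.06).

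In activated KO cells Mycn (-0.62 ± 0.07) and Mxd1 (-0.25 ± 0.05) were lower and Mxd4 (0.54 ± 0.06) higher than in control cells, while Mnt was not called (0.01 ± 0.06). At rest Mxd1 was lower in KO cells (-0.20 ± 0.06, adjusted p = 0.0352), and Mxd4 (0.14 ± 0.04) and Mnt (0.03 ± 0.06) were not called. Set against AGN192403, activated KO cells had more Mycn (0.63 ± 0.08) and Mxd1 (0.65 ± 0.06) and less Mxd4 (-0.20 ± 0.06), and Myc was not called (0.03 ± 0.04). Whether these genes had a part in the changes of the 40 was not tested.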

How the data were processed

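The 12 mouse libraries (6 groups of 2) were taken from a deposited table of raw counts. Per the labels, the authors used HTSeq for these counts after alignment by STAR 2.6.0c, and the build was GRCm38 (mm10). The study's methods name another STAR version, and RNA extraction is given as Trizol in the labels and as a column kit in the methods. Strand-specific libraries of polyadenylated RNA were described. Groups were taken from the labels. Of 46603 identifiers 46005 received a symbol from GENCODE M21 (GRCm38). Polr1f, Polr1g and Polr1h were matched under their older symbols. Riok2, Snhg1, Snhg4, Snhg7 and Snhg16 were not analysed here, and Snhg9 and Mycl did not pass the filter.

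The model was fitted in edgeR 4.0.16 (R 4.3.3) with filterByExpr over the 6 groups (13167 genes, 99.9% of counts), TMM factors (0.976 to 1.02), 1 mean per group over all 12 libraries (6 residual degrees of freedom, common biological coefficient of variation 0.0306), quasi-likelihood tests of 11 contrasts and Benjamini-Hochberg adjustment over all genes at 0.05. SE was derived from the F statistic. Values are TMM-scaled CPM. With 9089350 to 16481840 counts per library the precision is set by the 2 libraries per group. The steps were tested on simulated data. Replicate counts differed by more than sampling noise in every group (chi-square per degree of freedom 1.12 to 3.75).

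The 40 genes, the lists of other genes and the tests were chosen with earlier results of these data known, so list counts are descriptions and no list test was run. Values per library are given for genes with the largest called change in a role group in a comparison with control cells and for sole exceptions in a group, up to 4 called genes per further list are named, and Myc, Mxd1, Mxd4 and Mnt are given throughout. Mycn, and Wdr12 and Rrp12 per library, were added after the values were seen. Alternatives were median-ratio factors, library totals, no filter, at least 5 CPM in at least 2 libraries, DESeq2 1.42.0, only the groups compared, a replicate block and leaving out each library. A fit without 3 libraries was added after seeing the data. Where a group was left with 1 library, it was assumed to vary like the others. Promoter windows came from RefSeq (GRCm38.p6) and shared windows from GENCODE M21 transcripts. Marker sums are of CPM over each list.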

Additional observations from a re-analysis of the deposited data

Results flagged for a closer look

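The activation response with AGN192403 differed from that with water, by the edgeR test of the difference itself, in 30 of the 40 genes. The estimates (AGN192403 response minus control response, log2) were all negative.
In RNA polymerase I transcription they were -0.22 for Polr1a, -0.36 for Polr1c, -0.37 for Polr1e and -0.32 for Rrn3. Among the nucleolar organizers they were -0.39 for Ncl, -0.43 for Npm1, -0.41 for Nolc1, -0.45 for Mybbp1a and -0.28 for Ddx21. In the snoRNP cores they were -0.39 for Fbl, -0.27 for Nop56, -0.27 for Nop58, -0.26 for Nhp2 and -0.41 for Gar1. In small subunit assembly they were -0.20 for Heatr1, -0.34 for Wdr43, -0.23 for Utp20, -0.29 for Nop14, -0.47 for Rrp12, -0.41 for Ltv1, -0.41 for Nob1, -0.51 for Tsr1, -0.30 for Noc4l and -0.32 for Nat10. In large subunit assembly they were -0.20 for Bop1, -0.48 for Pes1, -0.52 for Wdr12, -0.34 for Nop2, -0.27 for Gnl2 and -0.49 for Gnl3.
The response of KO cells differed from that of control cells in 1 gene, Rrp12 (-0.28). Groups of 2 libraries are too small to look for single outlying values.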

How the results depend on the processing

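With 2 libraries per group, counts of a few genes moved most. In activated KO cells the 3 higher became 0 with DESeq2 and 1 without the 3 Kcnq1ot1-high libraries, and the 4 lower became 1 with no filter, 7 with the stricter filter, 2 with DESeq2 and 7 with only the groups compared. For AGN192403 in activated cells the 1 higher became 3 with library totals and 0 with no filter or DESeq2, and the 26 lower became 17 with only the groups compared. In resting KO cells the 3 higher became 5 with median-ratio factors, 6 with library totals, 5 with only the groups compared and 6 with the replicate block. For AGN192403 at rest 1 was lower without the Kcnq1ot1-high libraries. The 1 smaller KO response became 3 with median-ratio factors, 4 with library totals, 0 with no filter, 4 with the stricter filter, 5 with only the groups compared, 3 with the replicate block and 2 without the Kcnq1ot1-high libraries. Between activated KO and AGN192403 cells 1 was lower with library totals. At rest 1 was higher with median-ratio factors, with only the groups compared and without the Kcnq1ot1-high libraries, and the 12 lower became 3 with DESeq2. The cause was not tested.

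Leaving out 1 library at a time gave 1 to 3 higher and 1 to 7 lower for activated KO cells, 0 to 2 higher and 17 to 26 lower for AGN192403 in activated cells, 0 to 6 higher for resting KO cells and 11 to 19 higher for AGN192403 at rest. Smaller responses numbered 0 to 6 for KO and 21 to 31 for AGN192403. Activated KO against AGN192403 gave 11 to 24 higher and 0 to 1 lower, and resting 0 to 1 higher and 1 to 12 lower. Activation gave 39 to 40 higher in AGN192403 and in KO cells. For the genes with the largest called change in a role group, no log2 difference turned its sign under these alternatives. The balance of counts did turn in activated KO cells, where more members were lower than higher. With no filter, 3 were higher and 1 lower. The median of the 40 genes in activated KO cells, 0.01, ran from -0.03 to 0.04 and was below 0 in 7 of 20 alternatives. The median for AGN192403 in activated cells, -0.18, was -0.13 with library totals and without activated control replicate 2. That for activation in KO cells, 1.31, was 1.39 with no filter and 1.26 without resting KO replicate 1 or activated KO replicate 2, and that for activated KO against AGN192403 cells, 0.15, was 0.10 with library totals. The log2 differences of replicate 1 from replicate 2, over all genes tested, were correlated between pairs of groups. These correlations ran from -0.01 to 0.25, and 3 of 15 pairs were above 0.1 (0.25, 0.19 and 0.22). These 3 are the pairs among resting control, activated AGN192403 and activated control cells, whose replicate 1 libraries are those high in Kcnq1ot1. The labels do not say that a number marks a shared batch, and the numbers were not taken as pairing the groups. The replicate block gave 27 lower for AGN192403 in activated cells and 19 higher at rest.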
